A study of Mus musculus with 8 samples.

Results

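Cytosolic ribosomal protein genes encode the structural proteins of the ribosome, and their transcripts were followed here in single endothelial cells (ECs) of the adult mouse heart. Members were chosen by symbol alone, as Rpl or Rps followed by a digit together with Rplp0, Rplp1, Rplp2 and Rpsa. Kinase genes of the Rps6k group were left out. The rule gave 87 members of 16791 genes in the table, of which 53 carried large subunit symbols and 34 small subunit symbols. A further 16 symbols with -ps, mostly processed pseudogenes, were kept apart as a separate set. Rps19bp1 met the rule by its symbol but encodes a binding partner of a ribosomal protein.

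ECs came from Pdgfb-iCreERT2-R26R-Brainbow2.1 adults, in which a Cre recombinase under Pdgfb control switches on a multicolour (Confetti) reporter in ECs. All mice received 150 mg/kg tamoxifen 21 days before harvest, and 4 were healthy while in 4 the left anterior descending artery had been tied off for good 7 days before harvest (the MI group). CD31+Confetti+Podoplanin- cells of the ventricles were sorted, so that the Pdgfb-driven reporter and the gate set which ECs were seen, and 1 library of 10X Genomics 3′ unique molecular identifiers (UMIs, tags that mark single captured transcripts) was made per mouse. After haematopoietic-like and other non-endothelial clusters were set aside, 28780 ECs remained of 31028 cells. The defining EC genes Pecam1 and Cdh5 were present in every mouse, and the summed level of 6 EC markers was 5137 to 5718 CPM in healthy mice and 4836 to 5376 CPM in MI mice, where CPM is a gene's UMIs scaled to the mouse's total. Within that list, Kdr was lower in every MI mouse (400 to 589 CPM) than in every healthy mouse (733 to 933 CPM), and Pecam1 was higher (849 to 979 against 709 to 841 CPM).

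Each ribosome carries 1 copy of nearly every ribosomal protein, so the proteins are needed in near equal numbers. Many of their mRNAs begin with a C followed by a run of pyrimidines, the terminal oligopyrimidine (TOP) motif, through which growth signals acting via mTOR control their translation. The family is known for its large share of cellular mRNA, for coordinate regulation during cell growth and for numerous processed pseudogenes and retrogenes that arose from its abundant transcripts.

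RefSeq promoter windows on GRCm38.p6 are given for members whose levels departed from the family, to show which of them carry a TOP-like run at the annotated start. Each runs on the gene's strand from 20 bases before the annotated start to 10 bases from it, and capitals mark a C followed by at least 4 C or T bases that begins within 5 bases of the start. Rps6, Rps27, Rps27rt and Rps28 lie on the minus strand and the others on the plus strand. Rps2 (chr17:24720043-24720072), Rpl7a (chr2:26910787-26910816) and Rps6 (chr4:86857358-86857387) rose within the family after MI and held such a run.
Rps2: tgcgtaggcagtcgagatctcgcgCTTCTT
Rpl7a: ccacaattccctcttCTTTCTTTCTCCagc
Rps6: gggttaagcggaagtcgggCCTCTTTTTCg
Rps27 (chr3:90213639-90213668), its intronless copy Rps27rt (chr9:114982730-114982759) and Rpl38 (chr11:114668560-114668589) fell within the family and held one as well.
Rps27: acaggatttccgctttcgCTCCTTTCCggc
Rps27rt: ggttaagaacttatcccttgCTTTCCggcg
Rpl38: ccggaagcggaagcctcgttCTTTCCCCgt
No run of this kind was found in the window of Rplp0 (chr5:115559447-115559476), the member that rose most within the family, or of Rps28 (chr17:33824553-33824582), which fell.
Rplp0: acgtcgtcttcgggtttcgaggaccgcctg
Rps28: tcctgggtaccgcgtgcggtctcgcgagag
A promoter was matched for 66 of 87 members, and 30 of them (45.5%) held a run, against 21.2% of 27025 genes in the promoter table, searched on the gene's strand alone. Among members called within the family the run was held by 6 of 12 matched members that were above it and by 4 of 8 that were below it. Runs that began farther from the annotated start, such as one in the window of Rpl4, were not counted. Whether the annotated starts are those used in these cells was not tested.

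Several properties of the libraries moved with the groups. Median UMIs per EC were 1868 ± 280 (SD, n = 4) in healthy and 4174 ± 606 in MI mice with no overlap, so depth and condition cannot be told apart across libraries. By the labels the samples are separate mice, and p-values measure the spread between their libraries, some of which shared cells. In Healthy 228, 2030 cells (55.3%) shared the barcode of a Healthy 239 cell that held at least 90% of the smaller cell's UMIs on the same genes, and 301 cells (10.9%) of Healthy 227 were such copies of Healthy 228 cells. The main results are also given without these copied cells, but the p-values of single genes come from fits that kept them. Of 12 haematopoietic markers, 8 were higher in every MI than in every healthy mouse, with summed levels of 18.6 to 113 CPM in healthy and 256 to 421 CPM in MI ECs, and Ptprc, the defining leukocyte gene, reached at most 1.93 CPM in a mouse. The part of these traces in the results was not tested. Levels summed per mouse mix EC classes, whose shares of cells differ between mice.

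Ribosomal protein transcripts made up more than 12% of UMIs in the ECs of every mouse, and the share of the family did not separate healthy from infarcted hearts. The members took 13.3% of UMIs in Healthy 227, 14.1% in Healthy 228, 13.1% in Healthy 239 and 12.8% in Healthy 240. After MI they took 13.1% in MI 244, 13.7% in MI 250, 13.8% in MI 255 and 15.3% in MI 256. The groups overlapped, at 13.3 ± 0.53% (SD, n = 4) in healthy and 14.0 ± 0.94% in MI mice, and MI 256 stood highest. The difference of 0.69 percentage points fell to 0.24 without MI 256. Without copied cells Healthy 228 was at 14.5% and the difference was 0.60. Single cells spread more widely than mice: the 10th and 90th percentiles of single ECs averaged 8.31% and 18.0% in healthy mice and 8.63% and 18.3% in MI mice. No test was made of the summed share.

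The mean share was higher in bins of cells with more UMIs in both groups. At each depth that held both groups the mean was lower in MI mice, and it was higher in them only over cells of all depths. Healthy ECs with fewer than 1500 UMIs, a bin without MI cells, held 12.3 ± 0.77% and Healthy 227 was higher there (13.3%) than in its next bin (12.3%), while Healthy 240 was slightly lower in its deepest bin (13.95%) than in the one before (14.1%). Healthy ECs with 1500 to 3000 UMIs held 12.7 ± 0.65% ribosomal protein transcripts, those with 3000 to 6000 held 14.4 ± 0.51% and those with 6000 or more held 15.2 ± 1.1%. The same bins of MI ECs held 11.9 ± 1.2%, 13.4 ± 1.3% and 14.97 ± 1.06%. In ECs with 2000 to 4000 UMIs, a window that narrows the difference in depth (2634 to 2820 UMIs per cell in healthy and 2898 to 2961 in MI mice), the share was 13.2 ± 0.45% in healthy and 12.4 ± 1.3% in MI mice, again with overlap. MI 256 was the highest of all mice in this window at 14.3%, while MI 244 was the lowest at 11.1%. Giving each of 8 EC classes the same weight also gave a lower mean in MI mice, at 13.4% against 14.2%, with overlap, since MI 256 (15.04%) was above every healthy mouse (13.6% to 14.9%). This difference in family share of -0.810 percentage points shrank to -0.0326 at clustering resolution 1 and turned to 0.0435 when cells were clustered without the members.

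**Figure D1:**
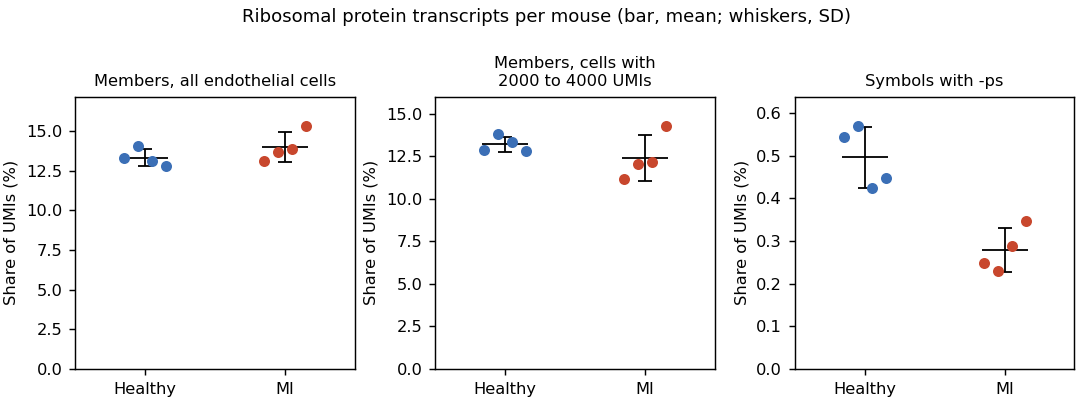
Share of UMIs (%) from members in all ECs and in ECs with 2000 to 4000 UMIs, and from symbols with -ps in all ECs. Each point is 1 mouse, bars are means and whiskers SDs. Members overlap between groups in both panels, and -ps symbols are lower in each MI mouse (at most 0.347%) than in each healthy mouse (at least 0.425%).

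Among EC classes the mean share ran from 11.6% to 19.1%. Clusters were named after the study's numbered populations only where their markers led them. Other clusters are called by their leading gene. The highest mean share in MI mice was found in the cluster 7-like class (Ackr1, Selp and Tmem252 among its leading genes), which held 20 or more cells in 3 MI mice only, at 18.6% in MI 244, 20.1% in MI 250 and 18.8% in MI 255. Its share was the highest among the classes of each of these mice, and its cells were deep, with a median of 7978 UMIs. The class of 440 cells was found almost unchanged at resolution 1 (438 of them) and when clustered without the members (422 of them), with the highest share in each of the 3 mice. At resolution 0.3 it was merged with most of the Rasa4-led and Igfbp3-led cells into 4778 cells that held 15.5 ± 0.96% in MI and 15.5 ± 0.84% in healthy mice, and ranked 1 or 2 in every mouse.

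The cluster 3-like class, ECs that carry heart muscle transcripts such as Myl2, Mb and Tnnt2, had the highest mean in healthy mice in the clustering used here, but not in the others tried. Its share was 20.4% in Healthy 227, 20.9% in Healthy 228, 18.0% in Healthy 239 and 16.7% in Healthy 240. It was 14.1% in MI 244, 15.3% in MI 250, 14.2% in MI 255 and 16.7% in MI 256. The means were 19.0 ± 2.0% and 15.1 ± 1.2%, and the lowest healthy mouse lay just above the highest MI mouse. These values depended on the clustering. The class held 635 cells here, with a median of 2538 UMIs. At resolution 0.3 it held 334 cells, 333 of them among the 635, with a median of 3644 UMIs, and the mean share was 13.5 ± 0.60% in 3 healthy and 14.3 ± 1.1% in 4 MI mice. At resolution 1 it held 374 cells, with 13.5 ± 0.49% and 14.0 ± 1.2%. When cells were clustered without the members it held 388 cells, with 13.3% over the 2 healthy mice that had at least 20 cells and 14.0 ± 1.3% in MI mice. With these 3 clusterings the mean was higher in MI mice and the groups overlapped, so the lower share after MI was seen in the 635 cells of this clustering alone.

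The Ift122-led class, with the tip cell gene Apln and the peptide hormone gene Adm among its leading genes, held 16.4 ± 0.49% in healthy and 15.6 ± 1.3% in MI mice and ranked 2 or 3 in every mouse. The cluster 5-like class, marked by the arterial genes Dll4, Hey1, Jag1 and Gja4, had the lowest mean in MI mice. It held 12.7 ± 0.73% in healthy and 11.6 ± 1.5% in MI mice. The Hspa1a-led class, rich in immediate early genes such as Egr1 and Atf3, had the lowest mean in healthy mice, with 11.6 ± 0.54% and 12.5 ± 0.96%. The proliferating cluster 10-like class (Mki67, Top2a, Cenpf) did not stand out, with 13.5 ± 0.79% and 12.7 ± 0.84%, although its median of 6448 UMIs was exceeded by that of the cluster 7-like class alone. The interferon-responsive cluster 2-like class (Ifit1, Ifit3, Cxcl10) held 12.3 ± 0.71% and 12.5 ± 0.94%. In the Car4-led class the values were 12.5 ± 0.43% (11.7% without copied cells) and 12.8 ± 1.6%, and in the Rasa4-led class 15.5 ± 1.0% and 14.3 ± 1.3%.

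At resolution 0.3 the cluster 2-like class was another population, of 4606 cells, of which 3006 were from the Ift122-led class and 1325 from the 2175 above. Of 8 classes found in all mice, 5 had a lower mean share after MI, and 7 did so without MI 256. The Igfbp3-led class (15.3 ± 1.1%) and the H19-led class (15.5 ± 2.6%) were comparable in MI mice alone. The Ly6c2-led class held 13.4 ± 0.81% in healthy mice, but most of its 2700 cells were from Healthy 227 (1490) and Healthy 228 (983). Both libraries held copied cells, although Healthy 227 had only 301 in all. The class had a median of 2522.5 UMIs, against 975 and 1040.5 in the copies of Healthy 227 and 228. Its -ps share in Healthy 228 was 0.793%, against 0.0762% in the copies there. Of the MI mice, MI 256 alone had at least 20 cells of it (86), at 15.9%, above every healthy mouse (12.6% to 14.5%). Of the cells set aside, pooled over mice, haematopoietic-like cells held 15.1%, fibroblast-like cells 14.0%, pericyte-like cells 12.6%, erythroid-like cells 5.44% and platelet-like cells 2.68%.

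**Figure D2:**
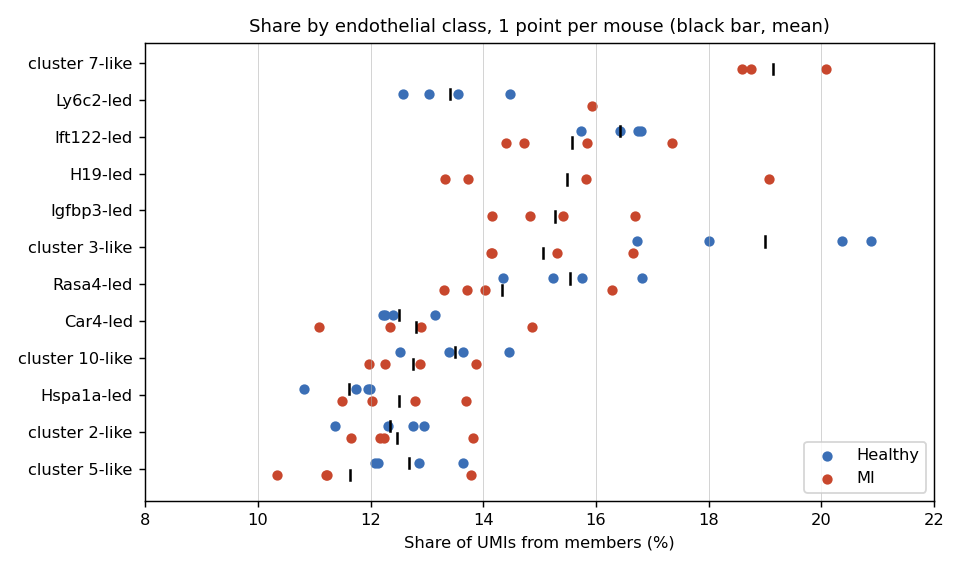
Share of UMIs (%) from members in each EC class, with 1 point for each mouse that had at least 20 cells of the class and black bars for group means. The cluster 7-like class, with 18.6% to 20.1%, is highest in each of the 3 MI mice that had it, and cluster 3-like cells of Healthy 227 and 228 reach 20.4% and 20.9% in this clustering, a height that the class did not have in the 3 other clusterings.

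Within the family, single members differed between classes, given here as a description because the clusters were drawn from the same cells. The values are log2 ratios of a member's share of family UMIs in the class to that in the other classes of the same mouse. Rpsa, a small subunit protein also known as the laminin receptor, was higher in cluster 10-like cells in 8 of 8 mice (0.40 ± 0.15, SD). Rpl3, which lies near the peptidyl transferase centre, was higher in cluster 5-like cells in 8 of 8 mice (0.41 ± 0.11), where Rpl39, a small protein of the exit tunnel, was lower in all (-0.33 ± 0.059). Rplp0, the base of the ribosomal stalk, was higher in cluster 7-like cells of 3 of 3 mice (0.39 ± 0.0099). Rpl12, which joins the stalk to the large subunit, was higher in Ift122-led cells in 8 of 8 mice (0.30 ± 0.16). Rpl22l1, the paralogue of Rpl22, was lower in Rasa4-led cells in 8 of 8 mice (-0.41 ± 0.089), and Rpl22 itself was higher there in 8 of 8 (0.15 ± 0.094).

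Comparing MI with healthy mice, 12 of 85 tested members were higher and 9 were lower by edgeR's quasi-likelihood test on UMIs summed per mouse (Benjamini-Hochberg adjusted p under 0.05 over all genes). Across 12247 tested genes 19.5% were called higher and 18.9% lower, and of the members tested 14.1% and 10.6%. The median log2 fold change of members was -0.002, against -0.017 over all genes. Scaling by total UMIs in place of TMM factors, which raised the median of members to 0.08, gave 22 higher and 7 lower, where 25% of all genes were higher and 14.4% lower. In ECs with 2000 to 4000 UMIs, in contrast, 0 members were higher by edgeR (1 at an unadjusted p under 0.05) and 11 lower, with a median of -0.18, where 7.04% of all genes were higher and 5.9% lower. In cluster 5-like cells 1 member was higher and 11 lower, again with a median of -0.18, where 6.45% of all genes were higher and 7.3% lower. Without copied cells 14 members were higher and 10 lower, where 18.8% of all genes were higher and 19.1% lower. Leaving out 1 mouse gave 7 higher without MI 255 (15.4% of all genes), 5 lower without MI 244 or MI 255 (13.9% and 14.1% of all genes), and 18 lower without MI 256, where 21.1% of all genes were lower. Rpl3l, a striated muscle paralogue, and Rpl10l, a testis paralogue, did not pass the count filter.

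To find members that departed from the family, each mouse's counts were also scaled by its total of member UMIs. Under this scaling 14 members were above the family after MI and 13 below it, where 16.2% of all genes tested were higher and 16.8% lower; members were called at 16.5% and 15.3%, close to this background. The number above was 4 in ECs with 2000 to 4000 UMIs (10.5% of all genes), 8 without Healthy 227 (14.4%), 9 without Healthy 240 (14.7%), 7 without MI 244 (11.6%), 9 without MI 250 (12.6%), 6 without MI 255 (11.7%) and 20 without MI 256 (23.3%), so that the share over all genes was likewise higher than 16.2% without MI 256 and lower in the other fits listed.

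Of the large subunit proteins other than the stalk, 5 of 43 rose (11.6%) and 3 fell (6.98%) within the family, where 16.2% of all genes were higher and 16.8% lower. Of the small subunit proteins 7 of 31 rose and 7 fell (22.6% each). Fold changes of members are given relative to the family on the log2 scale ± SE from here on. Those of -ps symbols and other genes are given with TMM scaling, unless stated otherwise.

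The stalk proteins, which recruit elongation factors to the ribosome, had unlike values. Rplp0 was at 1397, 1442, 1565 and 1527 CPM in Healthy 227, 228, 239 and 240 and at 2593, 2370, 2893 and 2380 CPM in MI 244, 250, 255 and 256. Each MI mouse lay far above each healthy mouse, by 0.72 ± 0.10 relative to the family (adjusted p = 0.000546 by edgeR), and the call held in all 18 alternatives tried, where the change was 0.49 to 0.79. Its partner Rplp1 was at 2569, 2543, 2110 and 2173 CPM in healthy mice and at 1858, 1949, 1877 and 2408 CPM in MI mice. It was lower within the family (-0.29 ± 0.08, adjusted p = 0.0198 by edgeR), with MI 256 inside the healthy range on the CPM scale, and the call was lost in 9 of 18 alternatives. Rplp2 was at 1702 ± 88 and 1642 ± 202 CPM and was not called (-0.13 ± 0.08, adjusted p = 0.234 by edgeR).

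Of the small subunit, Rps2, which sits at the mRNA entry channel, was at 1251, 1376, 1490 and 1447 CPM in healthy and at 2302, 2007, 2326 and 1951 CPM in MI mice. The groups were well apart, with a change of 0.56 ± 0.11 (adjusted p = 0.00325 by edgeR). Rpsa was at 673, 813, 705 and 698 CPM in healthy and at 946, 903, 969 and 928 CPM in MI mice. No values overlapped (0.31 ± 0.09, adjusted p = 0.0194 by edgeR), although the call was lost in 8 of 18 alternatives, such as cells with 2000 to 4000 UMIs (0.19, adjusted p = 0.235). Rps6, the substrate of S6 kinase, rose from 1698 ± 105 to 2198 ± 101 CPM (0.30 ± 0.08, adjusted p = 0.014).

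Large subunit proteins that rose within the family included Rpl4 (1039 ± 61 to 1390 ± 74 CPM, 0.35 ± 0.09), Rpl7a (640 ± 43 to 850 ± 17 CPM, 0.34 ± 0.08) and Rpl10a (783 ± 69 to 1036 ± 38 CPM, 0.33 ± 0.08). In none of these 3 did healthy and MI mice overlap, but of 18 alternatives the calls of Rpl4 and Rpl10a were lost in 4 each and that of Rpl7a in 2, in each case with cells of 2000 to 4000 UMIs among them. Rpl3 was at 1219, 1741, 1824 and 1709 CPM in healthy mice and at 2171, 1973, 2781 and 2116 CPM in MI mice. Healthy 227 was low, the change was 0.41 ± 0.15 (adjusted p = 0.0491 by edgeR), and without Healthy 227 it was 0.29 (adjusted p = 0.109). The call was lost in 14 of 18 alternatives.

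**Figure D3:**
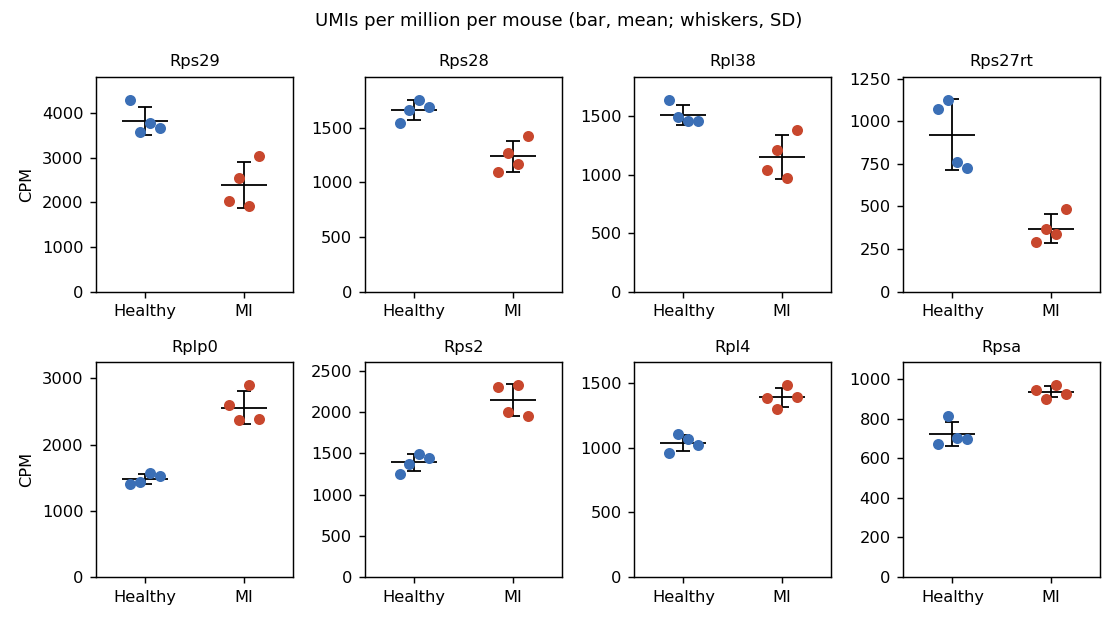
CPM per mouse of 4 members that were below the family after MI (Rps29, Rps28, Rpl38 and Rps27rt) and 4 that were above it (Rplp0, Rps2, Rpl4 and Rpsa). Points are mice, bars means and whiskers SDs. In each of the 8 panels the healthy and MI mice do not overlap.

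Among the members that fell were several small proteins of the small subunit. Rps29, a zinc-binding protein near the head of the subunit, was at 4297, 3587, 3780 and 3675 CPM in healthy mice, where it was among the most abundant members. In MI mice it was at 2042, 2541, 1924 and 3049 CPM, all below the lowest healthy mouse. Its change was -0.77 ± 0.12 relative to the family (adjusted p = 0.000706 by edgeR), and the call was lost in Car4-led cells alone (-0.30). That fit kept the copied cells, and their part in the lost call was not tested.

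Rps28 was at 1544, 1663, 1753 and 1689 CPM in healthy and at 1098, 1267, 1170 and 1426 CPM in MI mice. There was no overlap, and the change was -0.50 ± 0.08 (adjusted p = 0.00124 by edgeR). Rps21 was at 1195 ± 73 and 875 ± 216 CPM (-0.53 ± 0.12), with MI 256 (1172 CPM) inside the healthy range. Rps27 was at 3166 ± 193 and 2514 ± 400 CPM (-0.41 ± 0.09) and Rps12 at 1198 ± 146 and 957 ± 174 CPM (-0.40 ± 0.11), and in both of them MI 256 again lay within the healthy range.

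In the large subunit, Rpl38, known from mouse mutants for its role in the translation of Hox mRNAs, was at 1640, 1494, 1459 and 1465 CPM in healthy and at 1040, 1216, 973 and 1387 CPM in MI mice. The change was -0.47 ± 0.10 (adjusted p = 0.00389 by edgeR) without overlap.

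The largest fall of all members was that of Rps27rt, a single-exon retrogene on chromosome 9 (114982366 to 114982739, minus strand, GRCm38) that GENCODE lists as protein coding. It was at 1074, 1125, 761 and 728 CPM in healthy and at 288, 369, 339 and 484 CPM in MI mice. All MI values lay below all healthy ones, by -1.39 ± 0.15 relative to the family (adjusted p = 0.000145 by edgeR). Over 341 aligned bases its transcript was identical to that of Rps27, so how UMIs were divided between these genes in the authors' counting is uncertain. Rpl6l, which GENCODE lists as a processed pseudogene and which is 98.7% identical to Rpl6, was at 408 ± 27 and 272 ± 67 CPM (-0.67 ± 0.13, adjusted p = 0.00243 by edgeR). Of the other variants, Rpl22l1 rose from 380 ± 31 to 507 ± 57 CPM (0.34 ± 0.11, adjusted p = 0.0318), a call that was lost in 10 of 18 alternatives, among them leaving out any 1 of 5 mice. Rps27l, a target gene of p53, was at 435 ± 25 and 548 ± 71 CPM (0.27 ± 0.13, adjusted p = 0.131). Rpl36al was at 377 ± 7.9 and 444 ± 15 CPM (0.17 ± 0.09, adjusted p = 0.17) and Rpl7l1 at 83.9 ± 9.7 and 100.1 ± 7.8 CPM (0.19 ± 0.13, adjusted p = 0.303). Rpl39l did not exceed 2.37 CPM, Rpl3l 0.66 CPM and Rpl10l 1.14 CPM in a mouse. Rps19bp1 was at 37.9 ± 1.3 and 41.3 ± 2.8 CPM.

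Rpl41, Rpl13 and Rps14, the members with the highest mean over all mice, were not called within the family. Rpl41, the shortest of all, was at 3549 ± 119 and 4225 ± 108 CPM (0.18 ± 0.07, adjusted p = 0.08 by edgeR). Rpl13 was at 3050 ± 176 and 3461 ± 138 CPM (adjusted p = 0.221 by edgeR) and Rps14 at 3096 ± 282 and 3301 ± 229 CPM (adjusted p = 0.839 by edgeR). Levels of different genes are compared here on the CPM scale without a correction for length, since 3′ tags are counted once per transcript. Whether short and long transcripts were recovered equally was not tested, and short members were found less fully in the copied cells described below. Apart from variants, copies and Rps19bp1, the 77 members had mean levels between 551 and 3887 CPM, and the median coefficient of variation between mice was 6.61% in healthy and 8.39% in MI mice, against 8.19% and 8.76% for 181 other genes in the same range of CPM.

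Change within the family went with coding length, although most short and most long members were not called. Across the 77 members, coding length, which runs from 75 to 1257 bases, and log2 change within the family had a Spearman rho of 0.59 (Pearson r 0.56 with log2 length), and for mRNA length rho was 0.27, given as a description since the members share libraries. The 20 shortest held 29.9%, 27.0%, 28.8% and 28.8% of family UMIs in the healthy mice and 24.9%, 26.1%, 23.6% and 26.7% in the MI mice. All MI mice were thus lower, and of these 20 members 7 fell (16.8% of all genes) and 0 rose by edgeR (2 were higher at an unadjusted p under 0.05, 1 by DESeq2 and 0 by limma-voom after adjustment). The longest of the 20, Rpl31, has the same 375 bases as Rps25, which was called lower, so that 8 of the 21 members of at most 375 bases fell. The 19 longest (624 bases or more) held 20.03%, 21.3%, 21.4% and 21.1% in healthy and 24.8%, 23.5%, 25.3% and 22.5% in MI mice. These were higher in all MI mice, and 9 of the 19 rose (16.2% of all genes) while 0 fell by edgeR (0 also at an unadjusted p under 0.05, by DESeq2 and by limma-voom). The other short members were not called, and among them Rpl41 (75 bases), Rpl39 (153 bases, 0.15 ± 0.08, adjusted p = 0.186), Rpl36a (318 bases, 0.17) and Rpl36 (315 bases, 0.02) had values above 0.

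The Spearman correlation of coding length with log2 change was -0.17 over 11275 tested genes, -0.09 over 200 other genes of at least 500 CPM and -0.04 over 655 other genes with an mRNA under 1000 bases. For mRNA length it was 0.13 over 852 such short genes. Among 524 other genes within the coding lengths of the 20 shortest members the median change with TMM scaling was 0.09, with 155 higher (29.6%) and 71 lower (13.5%), and among 3455 within those of the 19 longest 24.5% were higher and 14.7% lower. With the family scaling used for the members these shares were 23.5% and 12.6% for the short and 20.3% and 12.4% for the long genes. Within the family rho was 0.56 in ECs with 2000 to 4000 UMIs, 0.57 when each cell was thinned to 1000 UMIs, 0.58 in Hspa1a-led cells, 0.44 in cluster 5-like cells and 0.18 in Car4-led cells. These fits kept the copied cells. Healthy 228, where 55.3% of cells were copies, gave 1202 of the 5185 Car4-led cells. The part of the copies in the low value of this class was not tested.

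**Figure D4:**
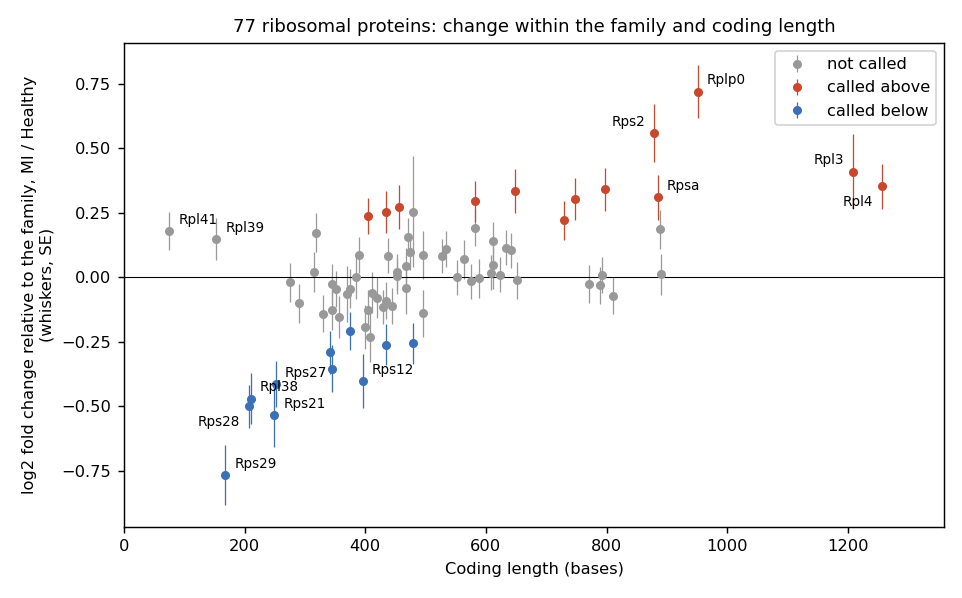
Log2 fold change of 77 ribosomal proteins relative to the family (MI over healthy, whiskers SE) against coding length in bases, coloured by the call at an adjusted p of 0.05. Of the 20 shortest members 7 were called below (8 of 21 with Rps25, which is as long as the last of them), and of the 19 longest 9 were called above, while the remaining calls lie between them and Rpl41 and Rpl39 are among the short members with values above 0.

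The copied cells could be compared between the pair of libraries that held them. Of the UMIs on a member in Healthy 239 cells, a median of 46.4% were found in the copies in Healthy 228, but the value ranged from 8.33% for Rps28 to 54.4% for Rps9. Copies held 10.2% of Rps29 UMIs, 14.7% of Rpl38 UMIs, 19.3% of Rps21 UMIs and 14.1% of Rps27 UMIs. Long members were found more fully, with a median of 49.6% for the 19 longest and 23.2% for the 20 shortest (rho with coding length 0.57, n = 77). Rplp0 (32.8%) and Rps2 (30.3%), the members that rose most after MI, lay below the median. In the copies of Healthy 228 cells in Healthy 227 the range was 3.25% to 29.8% and rho 0.51. The family share of the same cells was nearly equal, at 13.2% in the copies and 13.8% in Healthy 239. Without the copied cells 14 members were above and 12 below the family in the comparison of MI with healthy mice, where 15.1% of all genes were higher and 15.7% lower, and rho with length was 0.66.

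**Figure D5:**
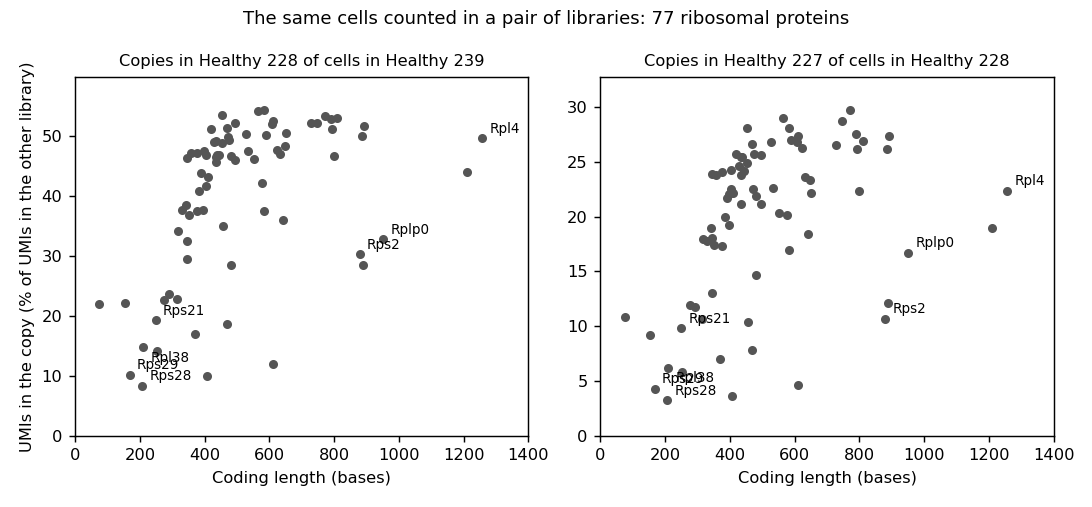
UMIs of each of 77 members found in copied cells, as a percentage of its UMIs in the same cells of the other library, against coding length in bases. Each point is 1 member. The short member Rps28 was found least in both (8.33% and 3.25%), and Rps29 was at 10.2% and 4.29%. Some longer members were also low in the copies in Healthy 227, such as Rpl27 (408 bases, 3.675%) and Rpl15 (612 bases, 4.615%).

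Symbols with -ps were lower after MI as a set, which the family was not. They took 0.543%, 0.570%, 0.425% and 0.447% of UMIs in the healthy mice and 0.248%, 0.230%, 0.287% and 0.347% in the MI mice. The groups did not overlap, at 0.496 ± 0.071% and 0.278 ± 0.052%, nor did they in 7 of 8 classes found in all mice. The exception was the Car4-led class, at 0.313%, 0.116%, 0.392% and 0.428% in Healthy 227, 228, 239 and 240 and 0.202% to 0.339% in MI mice. The mice that made the overlap, Healthy 227 and 228, were those with copied cells, whose part in it was not tested. Of 15 tested symbols 14 were lower and 0 higher by edgeR (0 also at an unadjusted p under 0.05, by DESeq2 and by limma-voom), where 18.9% of all genes were lower, with a median log2 change of -1.28. Rpl9-ps6 fell from 765 ± 40 to 431 ± 117 CPM (-0.91 ± 0.17, adjusted p = 0.00256 by edgeR with TMM scaling), Rpl23a-ps3 from 639 ± 75 to 295 ± 89 CPM (-1.20 ± 0.19), Rps12-ps3 from 639 ± 130 to 278 ± 102 CPM (-1.28 ± 0.24) and Rpl10-ps3 from 491 ± 155 to 230 ± 82 CPM (-1.17 ± 0.27), with Healthy 240 (336.6 CPM) below MI 256 (351.2 CPM).

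Rps18-ps3, the most abundant, was the exception. It was at 595, 1018, 736 and 775 CPM in healthy and at 972, 513, 1209 and 704 CPM in MI mice (0.03 ± 0.25, adjusted p = 0.926 by edgeR with TMM scaling). Mice thus differed widely within both groups. Among their parents, Rpl9, Rpl23a and Rpl10 were not called, with log2 changes of -0.03, -0.04 and 0.10 under TMM scaling, and Rps12 fell by 0.41. Rpl7a and Rps2 rose while Rpl7a-ps3 (-1.54) and Rps2-ps6 (-0.99) fell.

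The -ps symbols, Rps27rt and Rpl6l are near copies of their parents in sequence. Aligned transcripts of these 18 genes were at least 90.4% identical to the parent, 4 of them without a mismatch, and 17 had a single exon. In the copied cells -ps symbols made up 0.0762% of UMIs in the copies in Healthy 228 and 0.454% in the same cells in Healthy 239, where copies held 6.91% of -ps UMIs, 39.2% of member UMIs and 41.7% of all other UMIs. Without copied cells the -ps share was 0.557 ± 0.17% in healthy mice, again without overlap. Among ECs with 2000 to 4000 UMIs -ps symbols took 0.527 ± 0.11% of UMIs in healthy and 0.241 ± 0.057% of UMIs in MI mice, with no overlap. The part of read assignment in the fall was not tested.

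A few members varied between mice of the same group, and these were picked after their values were seen. Rpl29, a heparin-binding large subunit protein, was at 1044, 916, 579 and 1047 CPM in healthy and at 655, 1281, 1213 and 1384 CPM in MI mice. Healthy 239 and MI 244 held about 0.44% and 0.50% of family UMIs as Rpl29 and every other mouse 0.65% or more. It was not called (0.25 ± 0.21, adjusted p = 0.39 by edgeR).

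Ribosomal proteins whose symbols fall outside the rule were read beside it. Fau, which encodes a ubiquitin-like protein fused to a small subunit protein, was at 2176 ± 168 and 1872 ± 281 CPM, with overlap. It was called lower relative to the family (-0.29 ± 0.08, adjusted p = 0.019 by edgeR) but not with TMM scaling (-0.30 ± 0.12, adjusted p = 0.0639). Gnb2l1, the scaffold protein also called Rack1, was at 519 ± 43 and 563 ± 25 CPM and was called in neither (0.05 ± 0.08 relative to the family, adjusted p = 0.677).

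Other genes of ribosome production and translation were tested with TMM scaling, where 19.5% of all genes were higher and 18.9% lower. Of 7 genes on the elongation list, which also held Tpt1, 3 factors were higher and only Tpt1 was lower (median log2 change 0.19). Eif5a, which resolves stalled ribosomes, was at 378 ± 31 and 563 ± 81 CPM (0.49 ± 0.11), Eef1g, a subunit of the elongation factor exchange complex, at 469 ± 42 and 653 ± 49 CPM (0.39 ± 0.09) and Eef2, the translocase, at 1073 ± 123 and 1359.5 ± 52.8 CPM (0.26 ± 0.09, adjusted p = 0.0438), a call that was lost in 12 of 19 alternatives, among them cells with 2000 to 4000 UMIs (0.03). The call of Eef1g was lost in 4 of 19 alternatives and that of Eif5a in 3. Tpt1, another abundant mRNA with a TOP start, fell from 2339 ± 332 to 1888 ± 290 CPM (-0.39 ± 0.14, adjusted p = 0.0431), with overlap between groups and a call that was lost in 9 of 19 alternatives.

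Of 30 initiation genes 7 were higher and 2 lower (median 0.16). Pabpc1, the cytoplasmic poly(A)-binding protein and likewise a TOP mRNA, rose from 262 ± 19 to 477 ± 68 CPM (0.78 ± 0.10, adjusted p = 0.00058 by edgeR). Eif3i rose by 0.51 ± 0.08 and Eif1ax by 0.42 ± 0.11, while Eif3j1 (-0.52 ± 0.09) and Eif4a2 (-0.39 ± 0.09) fell. Of 19 alternatives, the call of Eif1ax was lost in 5 and those of Eif3i and Eif4a2 in 3 each, and in cells with 2000 to 4000 UMIs neither Eif3i nor Eif1ax was called.

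Of 45 genes of ribosome assembly and RNA polymerase I, 7 were higher and 5 lower (median 0.01). Nhp2, a core protein of H/ACA ribonucleoproteins, rose from 64.3 ± 5.7 to 114 ± 23 CPM (0.75 ± 0.13) and Pes1, needed for maturation of the large subunit, from 23.3 ± 2.3 to 36.2 ± 3.8 CPM (0.55 ± 0.10). The call of Pes1 was lost in 4 of 19 alternatives and that of Nhp2 in 2. Mrto4 was called higher (0.33 ± 0.12, adjusted p = 0.0455), but not in 11 of 19 alternatives. Pes1's partner Wdr12 (-0.63 ± 0.14), the polymerase I factor Taf1d (-0.62 ± 0.08) and Sbds, which releases Eif6 from the large subunit (-0.48 ± 0.07), fell. The groups overlapped in Mrto4 and Wdr12, where Healthy 240 (29.3 CPM) lay below MI 244 (29.7 CPM).

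Of 21 genes of growth control 3 were higher and 3 lower (median -0.02). The translation repressors moved in opposite directions, with Eif4ebp1 rising from 69.2 ± 4.1 to 118 ± 19 CPM (0.69 ± 0.11) and Eif4ebp2 falling from 50.2 ± 4.4 to 25.1 ± 2.1 CPM (-1.08 ± 0.10, adjusted p = 0.000109 by edgeR). Ddit4, an inhibitor of mTOR, was called higher (0.74 ± 0.23, adjusted p = 0.0281 by edgeR), but the groups overlapped (49.9 to 108 and 100.5 to 151 CPM) and the call was lost in 9 of 19 alternatives. Rps6kb1, an S6 kinase, was called lower (-0.29 ± 0.08), with overlap between groups and a call that was lost in 6 of 19 alternatives. The call of Eif4ebp1 was lost in 3 of 19 alternatives. Of the snoRNA hosts, 2 of 9 were in the table, and Snhg6 rose by 0.32 ± 0.08, a call that was lost in 4 of 19 alternatives. Mitochondrial ribosomal proteins, a list chosen after these results, had 17 of 77 higher and 2 lower (median 0.09), among them Mrpl54 (0.66 ± 0.09), Mrps11 (0.57 ± 0.10), Mrpl52 (0.53 ± 0.08) and Mrps31 (-0.42 ± 0.08). The call of Mrps31 was lost in 4 of 19 alternatives.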

How the data were processed

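UMI counts per gene and cell were deposited by the authors as 1 table of 8 libraries, made with Cell Ranger on mm10. Per the authors' notes, R 3.5.2 and Seurat 2.3 were used. Cells with under 400 genes or over 20% mitochondrial UMIs had been removed by the authors, and the counts were not normalized. Libraries held 6336521 to 7578663 EC UMIs in healthy and 14284248 to 23543109 in MI mice.

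Clusters were made in R 4.3.3 by Seurat 5.3.0 (resolution 0.6). Haematopoietic-like cells (1450) and 798 cells of other types were removed, and 58 lymphatic-like cells were kept among the ECs. No doublet caller was run. Shares were computed per mouse from summed UMIs and, by class, in mice with at least 20 cells of it. For tests, UMIs were summed per mouse and fitted with edgeR 4.0.16 (quasi-likelihood, low-count filter, Benjamini-Hochberg over all genes), scaled by TMM or by the summed UMIs of the members. DESeq2 1.42.0 and limma 3.58.1 (voom) were alternatives, as were other cell subsets, filters, scalings and each mouse left out. The fits were tested on simulated data.

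Members called within the family were named where their shares of family UMIs did not overlap between groups (up to 8 in each direction, at least 20 CPM), together with all variants, Rps19bp1, the stalk proteins, Rpsa, the most abundant members and the 5 most abundant -ps symbols. For each class the member farthest above and the one farthest below the other classes were found, and a selection is given. Other genes were named from their lists by size of change (up to 3 in each direction, at least 20 CPM). Rpl3, Rpl29, Rpl39, Rpl7a-ps3 and Rps2-ps6 were chosen after their values were seen, as was the naming of Rpl41 among short members. The members and lists were chosen with earlier results of these data known. Gene models were from GENCODE and promoters from RefSeq (GRCm38.p6). Some items named by these rules are not reported here.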

Additional observations from a re-analysis of the deposited data

Results flagged for a closer look

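Rplp1 in MI 256 was at 2408 CPM, apart from the other MI mice (1858 to 1949 CPM), so that the gap to the nearest of them was 0.834 of the range of the group. This is just past the ratio by which Dixon's test calls a value of a group of 4 apart. Chance gives such a gap in about 1 of 20 groups, and 132 groups were examined. MI 256 was also the MI mouse with the highest family share (15.3%) and the lowest median UMIs per cell (3396.5).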

How the results depend on the processing

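The difference in family share was 0.69 percentage points and 0.24 to 0.98 with 1 mouse left out. It changed sign in ECs with 2000 to 4000 UMIs (-0.804, and -0.782 without copied cells) and with equal weight for classes (-0.810, and -0.824 without copied cells). The equal-weight difference rested in part on the cluster 3-like class, and was -0.365 without it, -0.257 at resolution 0.3, -0.0326 at resolution 1 and 0.0435 when cells were clustered without the members. The difference within that class was -3.93 and became 0.73 at resolution 0.3, 0.50 at resolution 1 and 0.71 when clustered without the members. The last-named settings of each pair, the equal-weight settings by clustering, and those on Car4-led, Hspa1a-led and 2000 to 4000 UMI cells for the counts below, were chosen after seeing the data.

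Members higher after MI numbered 12 and became 20 with DESeq2, 22 with total UMIs, 3 after thinning to 1000 UMIs, 4 in Hspa1a-led, 2 in Car4-led and 1 in cluster 5-like cells, and 0 by edgeR in cells with 2000 to 4000 UMIs (1 at an unadjusted p under 0.05). With 1 mouse left out they numbered 7 (without MI 255, 15.4% of all genes) to 13 (without Healthy 228, 16.3%, or MI 256, 21.5%). Members lower numbered 9 and became 11 in cells with 2000 to 4000 UMIs, 11 in cluster 5-like, 5 in Hspa1a-led and 0 by edgeR in Car4-led cells (1 at an unadjusted p under 0.05). With 1 mouse left out they numbered 5 (without MI 244 or MI 255, 13.9% and 14.1% of all genes) to 18 (without MI 256, 21.1%). Members above the family numbered 14 and became 6 after thinning, 4 in cells with 2000 to 4000 UMIs, 4 in Hspa1a-led, 3 in cluster 5-like and 1 in Car4-led cells, and 6 (without MI 255, 11.7% of all genes) to 20 (without MI 256, 23.3%) with 1 mouse left out. Members below numbered 13 and became 8 in cells with 2000 to 4000 UMIs, 8 in Hspa1a-led, 5 in cluster 5-like and 0 by edgeR in Car4-led cells (3 at an unadjusted p under 0.05), and 9 (without MI 244 or MI 255, 13.1% and 12.2% of all genes) to 14 (without MI 256, 16.3%) with 1 mouse left out. Calls over all genes moved too. With TMM scaling 2.67% of genes were higher and 2.18% lower in Car4-led, 6.47% and 7.19% in Hspa1a-led and 12.5% and 12.1% in thinned cells, against 20.7% and 20% with DESeq2 and 19.5% and 18.9% in all ECs. With family scaling the shares were 1.24% and 0.951% in Car4-led, 4.23% and 5.78% in Hspa1a-led, 10.5% and 2.4% in cells with 2000 to 4000 UMIs, 10.5% and 2.23% in cluster 5-like and 10.7% and 8.62% in thinned cells. Subsets held fewer cells and kept the copied cells, and otherwise the cause was not tested.

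The change of Mrto4 after MI turned sign in Car4-led cells (-0.076, adjusted p = 0.867 by edgeR). Thinning left out 1608 healthy and 0 MI cells below 1000 UMIs. The planned fits on cluster 1-like cells were not run, since no cluster met that name. No paired analysis was possible because the groups share no replicate numbers.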
